A study of Mus musculus with 6 samples.

Results

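Interferon-stimulated genes are the genes that a cell switches on when interferon reaches it, and 48 of them were followed here by name. They were taken as the rows of the deposited count files whose gene name equals a symbol on the list, and all 48 were found once among 34745 genes. Those with more than 500 counts summed over the 6 libraries were tested, which left 19 of the 48, against 10046 genes of the whole series, and raw counts are given for the other 29. The libraries came from 889 cells, a murine lung cancer line of strain C57BL/6 per the labels, in which both groups had received Cas9 and an sgRNA from a lentiviral vector. Cells of the sgcontrol group (sg-con in the labels) carried a control sgRNA, for which the methods describe one against EGFP. Cells of the sgkiaa1522 group (sg-kiaa1522 in the labels) carried an sgRNA against kiaa1522. Each group has 3 libraries. The labels call the treated cells KIAA1522-downregulated. Which of the kiaa1522 sgRNAs they carried, and whether they were a pool or a clone, is not given in the sources used here, and no interferon or other agent is named for these cells. Nothing in the labels says that the libraries of a group came from separate cultures, so the p-values measure the spread between these libraries, which may be technical.

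Total counts were between 12220001 and 18609376 per library. The targeted gene, listed as C77080, was at 2214, 2404 and 2064 counts in sgcontrol and 2554, 3726 and 3667 in those labelled sgkiaa1522, so its mRNA was higher in the libraries whose label says that the gene was downregulated. Cas9 cuts the gene and need not lower its mRNA, so these counts do not check the edit or the protein, and directions are given for libraries named by their label. Of 8 epithelial and lung adenocarcinoma markers, the keratins Krt8, Krt18 and Krt19 had the highest counts, Epcam had none and Sftpc had 223 over the 6 libraries. Cdh1 had 907, 1028 and 1030 counts in sgcontrol against 259, 354 and 361, Napsa 19, 18 and 21 against 1, 5 and 3, and Nkx2-1 970, 1096 and 227 against 132, 174 and 671, with overlap. Of 8 immune markers, Adgre1 and Cd3e had no counts and Cd68 was the only marker with more than 500. The immune markers summed to between 1.67 and 2.98 CPM (counts scaled to library size) in the sgcontrol libraries and between 10.7 and 13.4 CPM in the libraries labelled sgkiaa1522, where Cd68 had 122, 235 and 186 counts against 21, 23 and 19, while Ptprc, which all white blood cells carry, had 26 counts in all. The 6 fibroblast markers summed to between 467 and 486 CPM in the sgcontrol libraries and between 167 and 198 in the others, most of it Col1a2. The 8 epithelial markers, most of whose counts are keratins, summed to between 3873 and 4593 CPM and between 3260 and 3509 CPM, and the 4 endothelial markers to at most 1.66 CPM in any library. The part of these markers in the results below was not tested.

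Interferons bind receptors at the cell surface, and kinases of the JAK family then phosphorylate transcription factors of the STAT family. Type I and type III interferons lead to a complex of STAT proteins and IRF9 that binds the interferon-stimulated response element, a repeat of GAAA, while interferon-γ leads to STAT dimers that bind the GAS element. The proteins made in response sense viral RNA, stop its translation, cut it or hold virus particles at membranes. Many tumor cells keep part of this programme running without added interferon, and several members, among them ADAR1 and the RNA sensors, are also made at a steady level without any signal.

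In the libraries labelled sgkiaa1522, 4 of the 19 tested members were lower past the threshold of the study's methods, with adjusted p no higher than 0.05 and a fold change of 1 or more on the log2 scale, in either direction, which is 21.1% against 4.34% of all tested genes. They were Xaf1, Lgals3bp, Herc6 and Tor3a. At an adjusted p of at most 0.05 alone, 11 of the 19 fell (57.9% against 26.3% of all tested genes) and 1, Ifi35, rose (5.26% against 26.3%). The members had been chosen with earlier results of these data known, so these shares only describe the list. No tested member was higher past the threshold with the fold change (2.74% of all tested genes were), 0 also at an unadjusted p under 0.05 with that fold change and 0 with DESeq2. The median log2 fold change of the 19 was -0.51, with a range of -2.21 to 0.36, and that of all tested genes was -0.0067. The groups did not overlap in CPM, with sgkiaa1522 lower, for 12 of the 19 (31.1% of all tested genes did so), and with sgkiaa1522 higher for 1 (30.6% of all tested genes). The adjusted p-values are from edgeR's quasi-likelihood test and were adjusted over all 10046 genes by the Benjamini-Hochberg method. In RNA from whole cultures, fewer cells that express a gene and less RNA per cell cannot be told apart. Of the 19, only Xaf1 had 250 counts or fewer in the 3 sgkiaa1522 libraries together, so that it passed the filter through the sgcontrol libraries. Summed over all 48 members, expression was between 864 and 941 CPM in the sgcontrol libraries and between 575 and 639 CPM in the libraries labelled sgkiaa1522, and without Lgals3bp the tested members summed to between 644 and 680 CPM and between 485 and 515 CPM.

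**Figure D1:**
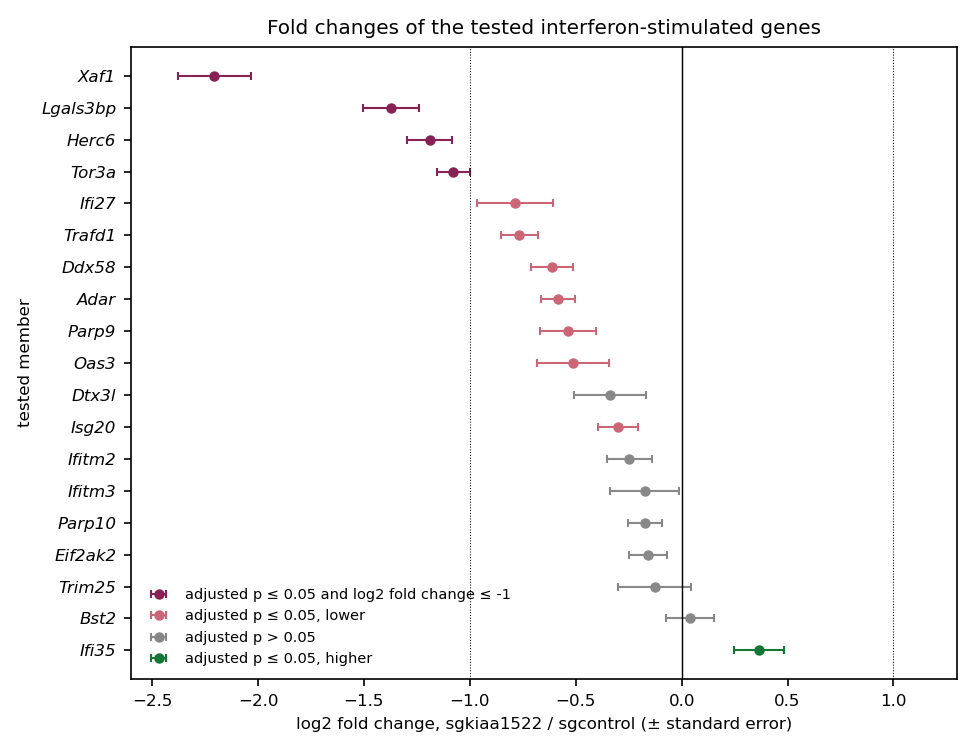
Log2 fold change (sgkiaa1522/sgcontrol, horizontal axis) of each of the 19 tested members, with its standard error as the bar, ordered from the largest fall to the largest rise, with dotted lines at a log2 fold change of -1 and 1. Xaf1 lies at -2.21, and of the 19 only Bst2 and Ifi35 lie above 0.

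Promoter sequences (250 bases before to 50 after the annotated start, RefSeq on GRCm38.p6) were at hand for 36 of the 48 members. They were searched on either strand for GAAANNGAAA, the core of the interferon-stimulated response element, and for TTCNNNGAA, the core of the GAS element. GAAANNGAAA was in the promoter of 17 of the 36 members (47.2%), against 3.99% of 27025 genes, and TTCNNNGAA in that of 9 (25%), against 9.55%. Of the 15 tested members with a promoter, 6 held GAAANNGAAA (40%), against 3.38% of tested genes. Of these 6, Ddx58 and Oas3 fell, the latter with a call that rests on single libraries, and Ifitm2, Ifitm3, Bst2 and Eif2ak2 did not pass the test. With 26.3% of all tested genes lower at that threshold, 2 of 6 is near the background. The promoters of Xaf1, Lgals3bp and Herc6, the members past the threshold for which there was a sequence, did not hold GAAANNGAAA or TTCNNNGAA in this window. The sequences below show members that fell without GAAANNGAAA, members that fell with it, and a pair with it that did not fall in the test or was too low to be tested. They are written 5′ to 3′ along the strand of the gene, with each match to GAAANNGAAA, on either strand, in capitals.
Xaf1 promoter, chr11:72301379-72301678, plus strand: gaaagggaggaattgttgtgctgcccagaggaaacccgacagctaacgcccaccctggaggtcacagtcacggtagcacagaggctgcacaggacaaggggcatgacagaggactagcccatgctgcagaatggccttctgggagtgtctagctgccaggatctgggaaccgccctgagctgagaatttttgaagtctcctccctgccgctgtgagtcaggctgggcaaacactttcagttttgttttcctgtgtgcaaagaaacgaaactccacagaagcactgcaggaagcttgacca
Lgals3bp promoter, chr11:118401910-118402209, minus strand: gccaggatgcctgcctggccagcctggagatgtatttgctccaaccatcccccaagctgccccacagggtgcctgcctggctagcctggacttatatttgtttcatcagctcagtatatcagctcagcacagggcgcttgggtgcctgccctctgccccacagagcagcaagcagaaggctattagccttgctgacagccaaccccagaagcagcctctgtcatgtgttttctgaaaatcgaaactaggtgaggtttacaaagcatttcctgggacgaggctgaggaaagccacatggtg
Herc6 promoter, chr6:57580742-57581041, plus strand: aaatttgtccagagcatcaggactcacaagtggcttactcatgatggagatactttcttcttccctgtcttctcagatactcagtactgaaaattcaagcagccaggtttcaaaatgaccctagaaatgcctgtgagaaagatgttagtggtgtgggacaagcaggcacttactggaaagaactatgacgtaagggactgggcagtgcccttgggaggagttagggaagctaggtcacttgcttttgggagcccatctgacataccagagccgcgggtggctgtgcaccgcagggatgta
Ddx58 promoter, chr4:40239776-40240075, minus strand: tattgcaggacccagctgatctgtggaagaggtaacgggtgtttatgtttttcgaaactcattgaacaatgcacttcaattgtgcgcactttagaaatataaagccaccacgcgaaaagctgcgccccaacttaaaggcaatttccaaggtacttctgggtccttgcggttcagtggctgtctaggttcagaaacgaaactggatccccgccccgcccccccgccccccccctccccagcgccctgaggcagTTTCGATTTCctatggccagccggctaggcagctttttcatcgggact
Oas3 promoter, chr5:120777610-120777909, minus strand: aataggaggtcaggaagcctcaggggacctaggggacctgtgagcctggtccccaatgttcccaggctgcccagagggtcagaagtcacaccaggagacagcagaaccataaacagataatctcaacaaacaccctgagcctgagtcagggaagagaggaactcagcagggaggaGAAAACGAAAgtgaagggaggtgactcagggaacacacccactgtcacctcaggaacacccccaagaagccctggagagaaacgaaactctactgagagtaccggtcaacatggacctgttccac
Ifitm2 promoter, chr7:140955912-140956211, minus strand: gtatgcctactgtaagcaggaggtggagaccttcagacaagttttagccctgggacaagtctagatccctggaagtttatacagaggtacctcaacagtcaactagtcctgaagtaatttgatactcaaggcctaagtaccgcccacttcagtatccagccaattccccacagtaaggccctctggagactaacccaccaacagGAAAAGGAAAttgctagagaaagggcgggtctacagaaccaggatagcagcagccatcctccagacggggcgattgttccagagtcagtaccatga
Isg15 promoter, chr4:156200769-156201068, minus strand: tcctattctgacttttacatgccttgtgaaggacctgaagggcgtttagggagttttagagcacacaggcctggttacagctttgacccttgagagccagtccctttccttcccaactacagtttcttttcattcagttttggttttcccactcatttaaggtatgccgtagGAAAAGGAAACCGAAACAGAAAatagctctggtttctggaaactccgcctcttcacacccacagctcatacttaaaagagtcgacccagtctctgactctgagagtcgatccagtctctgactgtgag

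Counted from the annotated start, whose first base is 1, with negative numbers before it, Isg15 held 3 overlapping matches from -78 to -57. Oas3 held 1 match from -75 to -66, Ifitm2 1 match from -46 to -37, and Ddx58 1 match on the opposite strand from 3 to 12. The shorter string CGAAAC, chosen after these sequences had been read, stood in the promoters of Xaf1 (from 15 to 20) and Lgals3bp (from -11 to -6), and also in those of Oas3, Isg15 and, 3 times, Ddx58. Of the tested members with a promoter it was in 4 of the 8 that fell and in 3 of the 7 that did not (Trim25, Ifitm3 and Eif2ak2). It was present in 11 of the 36 members (30.6%), beside 4.08% of all genes and 6.36% of tested genes, but since it was picked from these promoters the difference supports nothing, and it can overlap GAAANNGAAA, as in Isg15. A match to letters is no measure of binding.

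Xaf1 (ENSMUSG00000040483, chromosome 11 from 72301629 to 72313733, GRCm38) encodes a partner of the caspase inhibitor XIAP and is known as a pro-apoptotic interferon target. It had 16.1, 14.1 and 14.7 CPM in the sgcontrol libraries and 4.20, 2.78 and 2.89 CPM in the libraries labelled sgkiaa1522. Every sgkiaa1522 library was thus below every sgcontrol library, at 4.61-fold lower expression (log2 fold change -2.21, standard error 0.174, quasi-likelihood adjusted p = 9.2e-05). Its log2 fold change ranked 34 from the lowest of all 10046 tested genes.

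Lgals3bp (ENSMUSG00000033880, chromosome 11 from 118392751 to 118402092) encodes a secreted glycoprotein that binds galectin-3. It had 183, 210 and 225 CPM in the sgcontrol libraries and 92.4, 66.2 and 80.0 CPM in the libraries labelled sgkiaa1522. The groups lay well apart, at 2.59-fold lower expression (log2 fold change -1.37, standard error 0.132, quasi-likelihood adjusted p = 0.00019). Per length of its exons it was second among the members in the sgcontrol libraries, at 185 ± 15.9 TPM (transcript level scaled to exon length and library size), and 76.5 ± 12.9 TPM in the others (SD, n = 3).

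Herc6 (ENSMUSG00000029798, chromosome 6 from 57581000 to 57664632) encodes the ligase that attaches ISG15 to target proteins in the mouse. It had 19.5, 17.5 and 17.0 CPM in the sgcontrol libraries and 7.74, 7.96 and 7.89 CPM in the libraries labelled sgkiaa1522, where the 3 values were almost alike. It was 2.28-fold lower (log2 fold change -1.19, standard error 0.104, quasi-likelihood adjusted p = 0.00013). A processed transcript, Gm45193, shares 13.7% of its exon length on the same strand but had 18 counts in all.

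Tor3a (ENSMUSG00000060519, chromosome 1 from 156653617 to 156674356) encodes a torsin, an ATPase of the endoplasmic reticulum. It had 77.1, 76.7 and 74.9 CPM in the sgcontrol libraries and 38.8, 35.1 and 34.5 CPM in the libraries labelled sgkiaa1522, with little spread in either group. It was 2.11-fold lower (log2 fold change -1.08, standard error 0.0774, quasi-likelihood adjusted p = 6.8e-05). The 569 tested genes of chromosome 1 had a median log2 fold change of -0.21.

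For these 4 genes the exact two-sided permutation test of CPM gave p = 0.1 each, which is as small as a comparison of 3 with 3 can give. They remained past the threshold with any one library left out, with log2 fold changes between -2.40 and -2.09 for Xaf1, -1.49 and -1.25 for Lgals3bp, -1.23 and -1.14 for Herc6 and -1.13 and -1.05 for Tor3a.

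**Figure D2:**
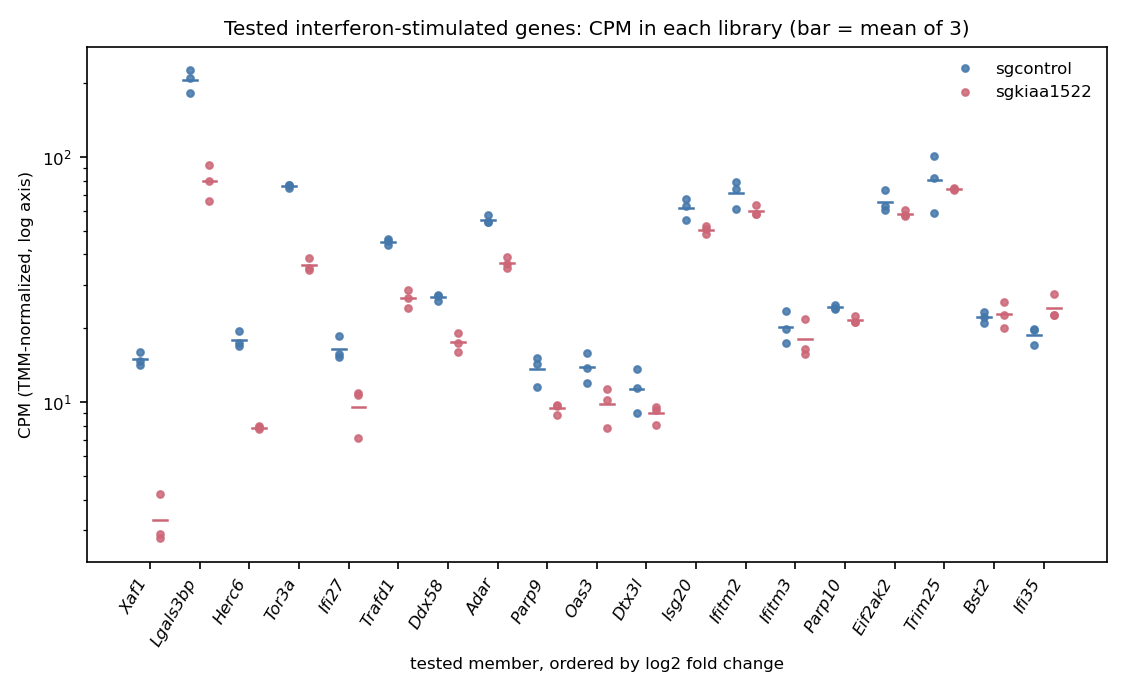
CPM of each tested member (vertical log axis, CPM normalized by trimmed mean of M values) in the 3 sgcontrol libraries (blue) and the 3 libraries labelled sgkiaa1522 (red), with the mean of each group as a bar and the genes in order of log2 fold change. Xaf1 falls from 15.0 to 3.29 CPM on average, and the groups of Trim25, Bst2, Ifitm2, Ifitm3, Eif2ak2 and Dtx3l overlap.

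Among the sensors of viral nucleic acid, 3 of 6 members were tested. Ddx58, which encodes the RNA sensor RIG-I, had 27.4, 25.8 and 27.1 CPM in the sgcontrol libraries and 16.0, 17.4 and 19.1 CPM in the libraries labelled sgkiaa1522. The groups did not overlap, and Ddx58 was 1.53-fold lower (log2 fold change -0.61, standard error 0.0977, quasi-likelihood adjusted p = 0.0017). Adar, which encodes the enzyme that edits adenosines in double-stranded RNA, had 54.3, 57.8 and 54.1 CPM against 35.3, 36.7 and 39.0 CPM. It fell too, without overlap (log2 fold change -0.58, standard error 0.0786, quasi-likelihood adjusted p = 0.00078). Chrnb2 on the opposite strand shares 16.8% of the exon length of Adar but had 61 counts in all, against 4682 for Adar. Eif2ak2, which encodes the kinase PKR that halts translation on double-stranded RNA, had 72.9, 62.9 and 60.6 CPM against 57.8, 60.7 and 57.5 CPM, with overlapping groups (log2 fold change -0.16, standard error 0.0895, quasi-likelihood adjusted p = 0.17). The other RNA sensors were lower in counts. Dhx58, which encodes LGP2, a relative of RIG-I, had 16, 13 and 26 counts against 15, 29 and 20. Ifih1, which encodes the sensor MDA5, had 1, 0 and 2 counts in sgcontrol and none in the others, and Zbp1, a sensor of Z-form nucleic acid, had 4 in all.

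The 2-5A synthetases make the short oligoadenylates that switch on RNase L, and of the 5 members of this family only Oas3 was tested. It had 13.8, 15.9 and 11.9 CPM in the sgcontrol libraries and 11.3, 7.86 and 10.2 CPM in the libraries labelled sgkiaa1522. The highest sgkiaa1522 value was close to the lowest sgcontrol value, and the log2 fold change was -0.51 (standard error 0.17, quasi-likelihood adjusted p = 0.036). The call rested on single libraries. Without sgcontrol replicate 1 the quasi-likelihood adjusted p of Oas3 was 0.057, without sgcontrol replicate 2 it was 0.12, without sgkiaa1522 replicate 2 it was 0.11 and without sgkiaa1522 replicate 3 it was 0.074. Oas2, whose gene lies 3244 bases from Oas3 on chromosome 5, had 24 counts over the 6 libraries, Oasl2 had 18, Oasl1 had 2 and Oas1a none.

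The ISG15 system joins the ubiquitin-like protein ISG15 to other proteins, through the activating enzyme UBA7, a conjugating enzyme and ligases such as HERC6, and USP18 takes it off again. Isg15 itself had 29, 32 and 50 counts in sgcontrol and 24, 12 and 15 in the libraries labelled sgkiaa1522, under the filter for the test. Uba7 had 70, 91 and 81 counts against 15, 23 and 27, so that no sgkiaa1522 library reached the lowest sgcontrol library. Usp18 had 21, 15 and 9 counts against 10, 10 and 17, and its groups overlapped. Trim25, a ubiquitin ligase that acts on RIG-I, was tested and had 82.2, 58.9 and 101 CPM in the sgcontrol libraries and 73.7, 74.5 and 73.2 CPM in the others. The sgcontrol values spread on either side of the sgkiaa1522 values (log2 fold change -0.13, standard error 0.173, quasi-likelihood adjusted p = 0.56), and without sgcontrol replicate 3 its log2 fold change was 0.062.

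Of 4 membrane proteins that restrict viruses, 3 were tested. Ifitm2, whose product blocks the fusion of virus with cell membranes, had the highest mean TPM of all members, 279 ± 30.4 TPM in the sgcontrol libraries and 251 ± 12.5 TPM in the others (SD, n = 3). Another gene, Gm45717, shares 40.9% of the exon length of Ifitm2 on the same strand but has no row in the deposited counts. Its reads may be among those of Ifitm2, which makes the counts of Ifitm2 uncertain. In CPM, Ifitm2 had 61.2, 79.1 and 73.8 against 63.7, 58.3 and 58.6, with overlap (log2 fold change -0.25, standard error 0.106, quasi-likelihood adjusted p = 0.085), and without sgcontrol replicate 1 it passed the test (log2 fold change -0.36, quasi-likelihood adjusted p = 0.0060). Ifitm3 had 17.4, 19.9 and 23.5 CPM against 21.8, 15.8 and 16.5 CPM (log2 fold change -0.17, standard error 0.163, quasi-likelihood adjusted p = 0.39). Bst2, which encodes tetherin, the protein that holds budding virus at the cell surface, had 21.1, 23.3 and 22.1 CPM against 25.6, 20.1 and 22.7 CPM (log2 fold change 0.039, standard error 0.112, quasi-likelihood adjusted p = 0.79). Ifitm1, a gene 11233 bases from Ifitm2, had 7, 9 and 6 counts in sgcontrol and 19, 17 and 17 in the libraries labelled sgkiaa1522, where every library was higher. The IFITM genes resemble each other in sequence, and how reads common to them were counted is given only as uniquely mapped.

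Parp9 and Dtx3l stand head to head on chromosome 16 and encode partners that form a ubiquitin ligase. Parp9 had 14.3, 11.5 and 15.1 CPM in the sgcontrol libraries and 9.64, 8.89 and 9.72 CPM in the libraries labelled sgkiaa1522, without overlap (log2 fold change -0.54, standard error 0.132, quasi-likelihood adjusted p = 0.011). Dtx3l had 13.6, 11.4 and 9.00 CPM against 9.56, 8.07 and 9.31 CPM, with overlap (log2 fold change -0.34, standard error 0.169, quasi-likelihood adjusted p = 0.13). Without sgcontrol replicate 3, Dtx3l passed the test (log2 fold change -0.48, quasi-likelihood adjusted p = 0.035). They share 458 exon bases on opposite strands, and since a strand setting is not given in the sources used here, reads from those bases cannot be assigned to either gene. Parp14, on the same chromosome and a mono-ADP-ribosyltransferase, had 82, 77 and 76 counts in sgcontrol and 36, 39 and 40 in the libraries labelled sgkiaa1522, so that every sgkiaa1522 library was lower. Parp10 had 24.0, 24.8 and 24.2 CPM against 21.2, 22.4 and 21.1 CPM, and although its groups did not overlap it did not pass the test (log2 fold change -0.17, standard error 0.082, quasi-likelihood adjusted p = 0.11). Plec, with 54492 counts in all against 2309 for Parp10, shares 4.8% of the exon length of Parp10 on the same strand, which makes the counts of Parp10 uncertain. Parp12 went the other way. It had 0, 1 and 3 counts in sgcontrol and 36, 43 and 42 in the libraries labelled sgkiaa1522.

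Isg20, which encodes an exonuclease of single-stranded RNA, was the tested member of the antiviral enzymes. It had 55.4, 63.3 and 67.4 CPM in the sgcontrol libraries and 52.1, 50.8 and 48.2 CPM in the libraries labelled sgkiaa1522, without overlap but with a narrow gap (log2 fold change -0.30, standard error 0.0927, quasi-likelihood adjusted p = 0.028). Its quasi-likelihood adjusted p was 0.082 without sgcontrol replicate 2, 0.082 without sgcontrol replicate 3, 0.073 without sgkiaa1522 replicate 2 and 0.095 without sgkiaa1522 replicate 3. Samd9l, a restriction factor and tumor suppressor, had 123, 75 and 83 counts against 23, 22 and 23, with every sgkiaa1522 library far below every sgcontrol library. Trim21, the intracellular antibody receptor, had 69, 65 and 48 counts against 81, 77 and 113, and after scaling to library size every sgkiaa1522 library was higher. Rsad2, which encodes viperin, had 8 counts in all and its neighbour Cmpk2 had 2.

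Of the remaining members, Trafd1, a feedback inhibitor of innate signaling, had 43.5, 46.1 and 45.4 CPM in the sgcontrol libraries and 28.7, 24.2 and 26.6 CPM in the libraries labelled sgkiaa1522, without overlap (log2 fold change -0.77, standard error 0.0878, quasi-likelihood adjusted p = 0.0004). Ifi27, which encodes a small hydrophobic protein, had 15.2, 15.6 and 18.6 CPM against 10.7, 10.9 and 7.13 CPM and also fell (log2 fold change -0.79, standard error 0.179, quasi-likelihood adjusted p = 0.0081). Ifi35, whose product binds the STAT partner NMI, was the tested member that rose, with 17.0, 19.8 and 19.7 CPM against 27.6, 22.6 and 22.6 CPM (log2 fold change 0.36, standard error 0.118, quasi-likelihood adjusted p = 0.034). With any one of the 6 libraries left out, its quasi-likelihood adjusted p was between 0.052 and 0.096, above the threshold each time. Sp100, a protein of nuclear bodies, had 22, 22 and 28 counts against 15, 8 and 9, with overlap once scaled to library size, Rtp4 had 14 counts in all and Ifi44 had 1.

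The antiviral GTPases and the IFIT proteins, which bind viral RNA and are among the most strongly induced products of interferon, had few counts. None of the 5 GTPases and none of the 4 IFIT genes was tested. Mx2 had 67, 44 and 49 counts in sgcontrol and 23, 22 and 41 in the libraries labelled sgkiaa1522, Mx1 had 10, 7 and 10 against 4, 6 and 4, and Gbp2 had 15, 13 and 11 against 2, 5 and 4. For Mx1 and Gbp2 the groups did not overlap after scaling to library size. Gbp7 had 15 counts in all and Gbp3 had 9. Ifit2 had 56, 65 and 88 counts against 52, 97 and 87, with overlap, although the other genes of its cluster on chromosome 19 were close to silent. Ifit3 had 7, 0 and 2 counts against 15, 5 and 14, Ifit1 had 5 in all and Ifit3b had 1. Ifit3 and Ifit3b are near copies of each other, so reads that match either are lost from uniquely mapped counts.

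**Figure D3:**
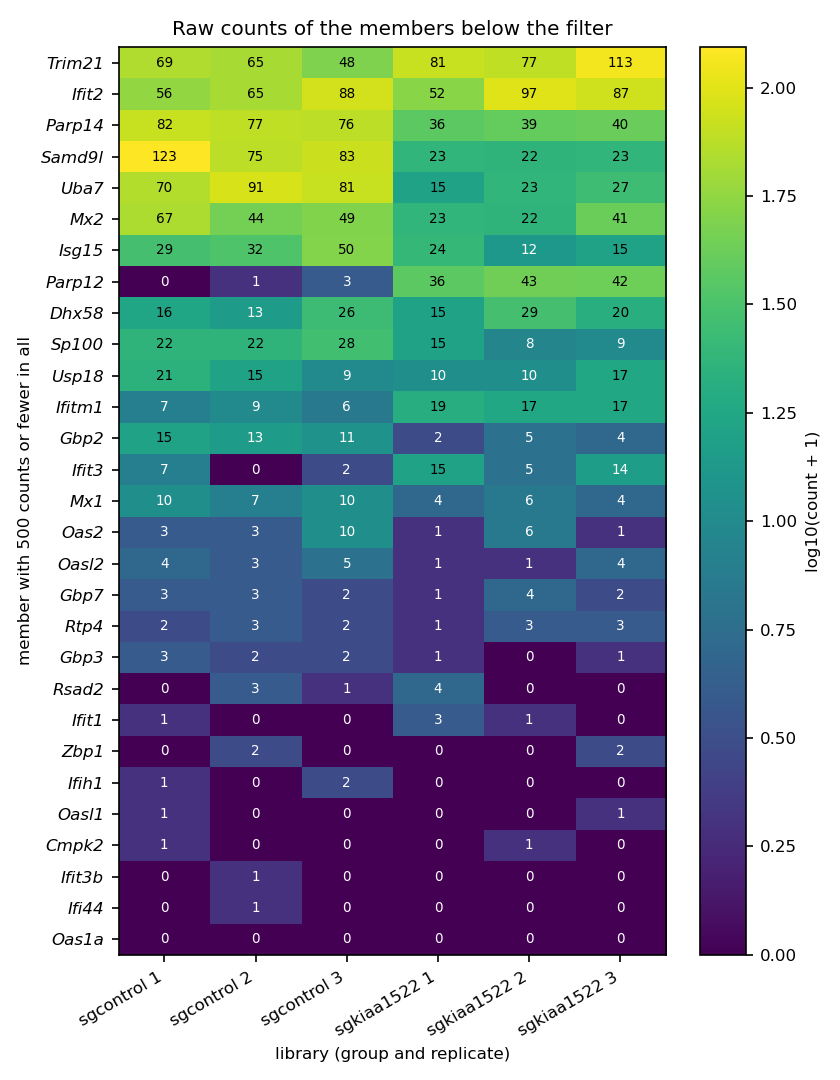
Raw counts of the 29 members with 500 counts or fewer in all (rows, from the highest sum to the lowest) in the 6 libraries (columns), with the count written in each cell and coloured by log10(count + 1). Parp12 is at 0, 1 and 3 counts in sgcontrol and at 36, 43 and 42 in the others, Samd9l and Uba7 are lower in each library labelled sgkiaa1522, and Oas1a is at 0 throughout.

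Among the 29 untested members, 10 had between 101 and 500 counts in all, 9 had between 11 and 100, and 10 had 10 or fewer, of which 1 had none. In CPM, the groups of 20 overlapped, 6 were lower in every library labelled sgkiaa1522 than in any sgcontrol library (Uba7, Mx1, Gbp2, Gbp3, Samd9l and Parp14), and 3 were higher (Trim21, Ifitm1 and Parp12). Among all 8453 genes with 1 to 500 counts, 12.1% were lower and 10.7% higher without overlap. That share moved with the counts. In the range of 101 to 500 counts it was 33.9% lower and 22.8% higher of 1493 genes, beside 3 and 2 of the 10 members there. A count of 0 allows up to 3 counts, which is between 0.162 and 0.247 CPM in these libraries, for counting error only. Expression of Oas1a, and of Ifih1, Ifi44 and Ifit3b in the libraries labelled sgkiaa1522, was therefore not detectable at this depth.

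The other genes of the pathway were taken from 5 lists. None of the listed interferon genes was at a level that could be tested. Ifnb1 had 4 counts in all, Ifne 8 and Ifng 1, and Ifna1, Ifna2, Ifna4, Ifnk, Ifnl2 and Ifnl3 none. All 6 receptor genes were tested, and 4 fell (66.7%) and 1 rose (16.7%), beside 26.3% of all tested genes in each direction. Ifngr1 and Ifngr2, the chains of the interferon-γ receptor, fell from 50.7 ± 7.41 to 31.1 ± 2.15 CPM and from 102 ± 2.83 to 66.5 ± 0.724 CPM (SD, n = 3), with log2 fold changes of -0.70 and -0.62 (quasi-likelihood adjusted p = 0.0024 and 0.00019). Ifnar2, a chain of the type I receptor, fell less (log2 fold change -0.36, quasi-likelihood adjusted p = 0.0045), and Ifnar1, its partner, did not pass the test (-0.069, quasi-likelihood adjusted p = 0.45). Il10rb and Ifnlr1, the chains of the type III receptor, were outside the rule for named genes and were picked once their values were known. Il10rb fell (log2 fold change -0.65, quasi-likelihood adjusted p = 0.0010) and Ifnlr1 rose (0.68, quasi-likelihood adjusted p = 0.00053).

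Among the JAK kinases, STATs and IRFs, Stat2 (log2 fold change -0.057, quasi-likelihood adjusted p = 0.63) and Irf9 (0.28, quasi-likelihood adjusted p = 0.15), which are part of the complex at the response element, did not pass the test, nor did Jak1 (0.088, quasi-likelihood adjusted p = 0.35), Tyk2 (0.10, quasi-likelihood adjusted p = 0.30) or Irf1 (0.043, quasi-likelihood adjusted p = 0.76). Without sgcontrol replicate 1, Jak1 passed (0.15, quasi-likelihood adjusted p = 0.044). Irf3, the factor that starts interferon synthesis, had a log2 fold change of -0.28 (quasi-likelihood adjusted p = 0.046) that was past the threshold with all libraries, but not without sgcontrol replicate 2 (quasi-likelihood adjusted p = 0.13), sgcontrol replicate 3 (0.12) or any of the sgkiaa1522 libraries (0.057, 0.15 and 0.083). Jak2 and Irf2 rose and are also named after their values were seen (log2 fold changes 0.41 and 0.32, quasi-likelihood adjusted p = 0.0071 and 0.019). Irf2 was above the threshold without sgcontrol replicate 3 (quasi-likelihood adjusted p = 0.059), sgkiaa1522 replicate 2 (0.068) or sgkiaa1522 replicate 3 (0.064). Irf7 was not tested, with 52, 73 and 48 counts against 31, 61 and 42.

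Of 12 tested sensors, adaptors and kinases upstream of interferon, 3 fell (25%) and 1 rose (8.33%), and of 12 negative regulators 1 fell (8.33%) and 4 rose (33.3%), beside 26.3% of all tested genes in each direction. The rise past the fold threshold was that of Aim2, a sensor of DNA in the cytosol, from 1.94 ± 0.337 to 10.8 ± 2.11 CPM (SD, n = 3; log2 fold change 2.47, standard error 0.213, quasi-likelihood adjusted p = 0.00013). In a further list of 63 interferon-induced genes that are not members, 32 were tested, 12 fell (37.5%) and 8 rose (25%), beside the same 26.3%, and the median log2 fold change was -0.17. Those past the fold threshold without overlap were Apol9a (log2 fold change -2.67), Apol9b (-2.28), Gbp9 (-1.74), Gbp4 (-1.65) and Psme2 (-1.12), which were lower, and Ly6e (6.39), which was higher (quasi-likelihood adjusted p at most 0.0074 each). Apol9a and Apol9b are near copies of each other, so the split of their reads is uncertain. Aim2, Ly6e and Apol9a had 250 counts or fewer in their lower group, so they passed the filter through the group where they were high. The sgcontrol libraries of Ly6e had 20, 4 and 3 counts, and without sgcontrol replicate 1 its log2 fold change was 7.72. Without sgkiaa1522 replicate 2, Psme2 was at -0.97 and no longer past the fold threshold.

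**Figure D4:**
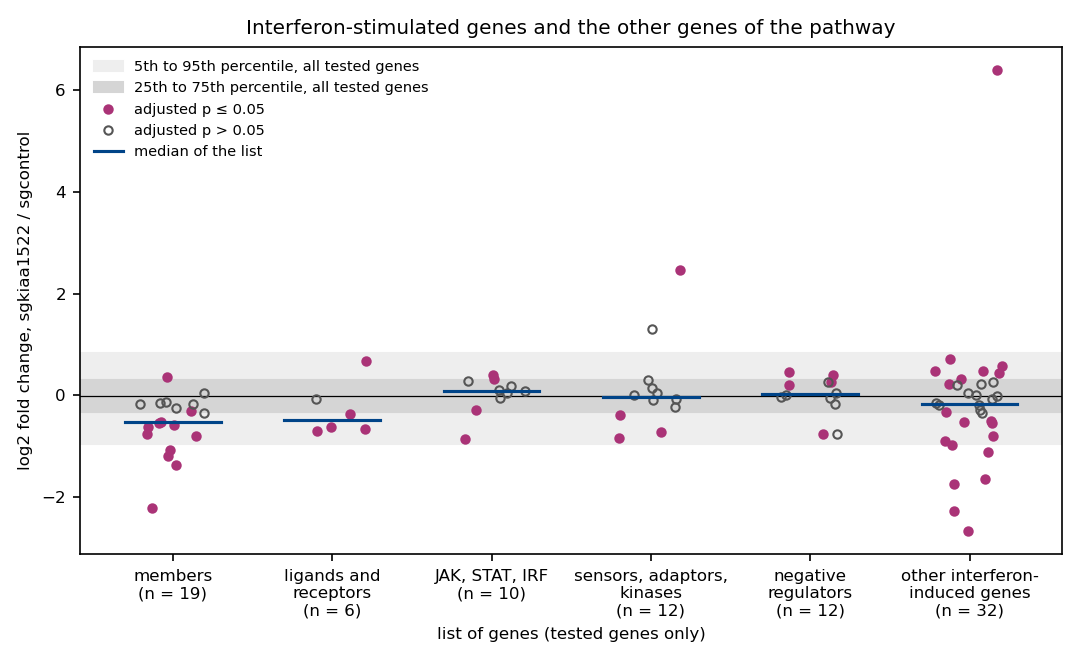
Log2 fold change (sgkiaa1522/sgcontrol, vertical axis) of the tested members and of the tested genes in 5 other lists of the pathway, filled where the adjusted p was at most 0.05, with the median of each list as a blue line. Grey bands give the 5th to 95th percentile (-0.95 to 0.82) and the 25th to 75th percentile (-0.33 to 0.31) of all 10046 tested genes, and the median of the members lies at -0.51.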

How the data were processed

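Total RNA was sequenced from 6 libraries. After removal of adaptors and rRNA reads (Seqtk), the authors aligned to GRCm38 with HISAT2 2.0.4 and took fragment counts of genes with StringTie 1.3.0, as stated in the methods and the submitters' processing notes. The deposited counts are raw and whole, 1 value per Ensembl gene, in 1 file per library. The annotation release and a strand setting are not given in the sources used here. The filter of more than 500 summed counts kept 10046 of 34745 genes, which were normalized by TMM (factors 0.989 to 1.01) and fitted with edgeR's quasi-likelihood test without covariates, in R 4.3.3 with edgeR 4.0.16, limma 3.58.1 and DESeq2 1.42.0. Adjusted p-values are Benjamini-Hochberg values over all tested genes. CPM are relative to the TMM-scaled sum of tested genes. TPM used exon lengths from GENCODE M21, to which 34267 gene identifiers were matched. Every member is named. Of the pathway lists, a fixed set of receptors, kinases, STATs and IRFs is named, with the genes past both thresholds whose groups do not overlap. The result of 1 gene is not reported here. The members and lists were chosen with earlier results of these data known. The last 30 bases of 40 of 44 promoter entries were found in the sense strand of the gene's transcripts. Libraries of a group differed beyond sampling noise (chi-square over degrees of freedom 12.3 or more). The fits were also run on simulated counts that took mean levels and depths from these libraries. A single dispersion was used for every gene there, so that run does not check the spread of these data.

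Alternatives were other size factors, library size alone, both other filters on low counts, DESeq2's Wald test, the likelihood ratio test, the replicate number as a block and each library left out in turn.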

Additional observations from a re-analysis of the deposited data

How the results depend on the processing

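The 4 members lower past the threshold, Xaf1, Lgals3bp, Herc6 and Tor3a, were among those called under every alternative run. The count was 4 (21.1%, beside 3.71% to 4.62% of all tested genes) except where low genes were also tested. With every gene of at least 1 count, 47 members were tested, of which 7 were lower (14.9%, beside 5.09% of all genes) and 2 higher (4.26%, beside 4.15%) past the threshold, and 15 were lower (31.9%, beside 16.8%) and 4 higher (8.51%, beside 16.7%) at an adjusted p of 0.05. With edgeR's filterByExpr, 32 members gave 7 lower (21.9%, beside 6.69%) and 2 higher (6.25%, beside 5%) past the threshold, and 15 lower (46.9%, beside 25.6%) and 4 higher (12.5%, beside 25.5%) at an adjusted p of 0.05. Added as lower past the threshold, in edgeR's quasi-likelihood test after filterByExpr, were Samd9l (log2 fold change -1.87, adjusted p = 0.0011), Uba7 (-1.73, 0.00031) and Gbp2 (-1.64, 0.0083). Parp12 (4.96, 0.00019) and Ifitm1 (1.44, 0.0096) were added as higher. At an adjusted p of 0.05 alone, the same test also added Parp14 (-0.85, 0.0055) and Trim21 (0.76, 0.024). Gbp2, Parp12 and Ifitm1 passed this filter through the group where they were high. The fitted values of such low genes depend on the prior count.

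The numbers in the labels gave no sign of pairing the libraries. Correlations of the deviations of same-numbered libraries across genes were -0.24, -0.053 and -0.17, none of them positive. Pairs with unlike numbers averaged 0.076, but the deviations are from group means, which ties this value to the others. With the replicate block, 4 members were lower past the threshold (21.1%, beside 4.32% of all tested genes). At an adjusted p of 0.05, 9 were lower (47.4%, beside 21%) and 0 were higher (beside 21%). Oas3, Isg20, Ifi35, Irf3 and Irf2 were no longer called. With each library left out in turn, between 9 and 11 members were lower at an adjusted p of 0.05 (47.4% to 57.9%, beside 20.8% to 29.4% of all tested genes). In these runs 0 members were higher, beside 20.4% to 29.6% of all tested genes. The median log2 fold change of the members was between -0.55 and -0.37. Log2 fold changes near 0 turned sign for Bst2 (between -0.049 and 0.12, negative without sgcontrol replicate 1 or sgkiaa1522 replicate 1), Trim25 (between -0.32 and 0.062, positive without sgcontrol replicate 3) and Irf1 (between -0.043 and 0.12, negative without sgkiaa1522 replicate 3). Irf3 was also above the threshold with either other filter (adjusted p = 0.055 and 0.050) and the likelihood ratio test (0.058), all from edgeR. The cause of these changes was not tested. Genes under about 100 counts in all are limited by depth.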
